A study of Mus musculus with 483 samples.

Results

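Dll4 is the gene of delta-like 4, a ligand of the Notch receptors. It was followed as 1 gene of the 46078 in a table of read counts from 483 single mouse cells, and was matched by its Ensembl identifier, ENSMUSG00000027314. The tissue was the AGM (the aorta together with gonads and mesonephros), the region of the embryo in which blood stem cells first appear. The cells were sorted as positive for CD31 (Pecam1) and Kit and negative for CD45, and their treatment label was Ctrl or aDll4-treated. The title of the series concerns how Dll4 affects the entry of hemogenic cells into clusters inside the aorta, and the labels do not say what aDll4 is, its dose or its time. The 2 groups share the tissue and the gate. No genotype, strain, age, embryo or culture is named, so each treatment was taken as 1 sample and no test between treatments was possible. Differences are therefore given as values with intervals that cover counting error only, and the reads carry no molecular identifiers, so amplified copies are counted as reads.

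Notch signalling passes between touching cells. A ligand on 1 cell binds a receptor on its neighbour, endocytosis of the ligand pulls on the receptor, the receptor is cut, and its freed intracellular part joins the DNA-binding protein Rbpj to switch on genes such as Hey1. In endothelium Dll4 is known as the ligand of arteries and of the tip cells of vessel sprouts, where signalling by vascular endothelial growth factor (VEGF) raises it, and where it holds back sprouting in neighbouring cells.

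The depth of a Ctrl cell was 136928 to 2870618 reads on genes, with a median of 900286. That of a treated cell was 123097 to 2451790 reads, with a median of 869802. The labels place every cell in 1 of 7 clusters, built by the submitters on these same cells under the name ICGS. Of the Ctrl cells 97 were in cluster 1, 73 in cluster 2, 31 in cluster 3 and 38 in clusters 4 to 7, and of the treated cells 86, 72, 36 and 50. The clusters used the same genes, so Dll4 may have helped to shape them and its level by cluster is a description. The labelled cell type, hematopoietic stem cells, was set against markers. Summed over 17 pan-endothelial genes, clusters 1 to 3 held 12245 CPM (reads of a gene scaled to a total of 1e+06 gene-assigned reads) in Ctrl and 11657 in treated cells, with all 17 genes present, against 519.8 and 436 in clusters 4 to 7. Summed over 12 pan-hematopoietic genes, clusters 1 to 3 held 258.6 and 232.5 CPM, against 1330.0 and 1354 in clusters 4 to 7. Clusters 1 to 3 are therefore called endothelial here, against the label.

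The gene lies on chromosome 2 of mm10, from 119325784 to 119335962 on the plus strand, with 3852 bases of exon. A processed transcript gene on the minus strand, Gm14207 (ENSMUSG00000074912, 119321187 to 119326194), starts inside Dll4 and shares exon bases with it from 119325981 to 119326194. Smart-seq2 reads do not mark the strand, so reads in those bases cannot be assigned to either gene. The 250 bases before the Dll4 start, at chr2:119325534-119325783 on the plus strand of GRCm38.p6 (from RefSeq), are shown because the 2 genes meet there. The capitals mark the 31 bases that lie in an exon of Gm14207.

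Dll4 upstream: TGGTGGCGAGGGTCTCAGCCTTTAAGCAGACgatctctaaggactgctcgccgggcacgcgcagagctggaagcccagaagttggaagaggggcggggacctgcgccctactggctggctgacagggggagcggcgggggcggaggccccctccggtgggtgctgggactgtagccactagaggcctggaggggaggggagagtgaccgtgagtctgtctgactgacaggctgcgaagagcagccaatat

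This window was 65.6% G or C, against a median of 52.4% over 32817 RefSeq windows of the same length. 3 short motifs were searched on both strands. The core TGGGAA, bound by Rbpj, was not among these letters, and was in 21.6% of all windows. The core ACAAT, bound by SOX factors, was not among them either, and was in 27.7% of all windows. The core GGAA, bound by ETS factors, was found 2 times on the plus strand, and was in 93.4% of all windows. Of the 9 windows found for the 12 genes that followed Dll4 most closely across cells (below), 3 held TGGGAA, 0 held ACAAT and 9 held GGAA. These are matches of letters and not sites.

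Across the clusters, Dll4 was highest in cluster 1, followed by cluster 2, then cluster 3, and was close to nothing in clusters 4 to 7 (the plot of single cells by cluster). In Ctrl cells of cluster 1 (n = 97) the level per cell ran from 0 to 4501 CPM with a median of 461, and the summed level was 599.5 CPM (594.6 to 604.5). In Ctrl cells of cluster 2 (n = 73) it ran from 0 to 2162 CPM with a median of 202.9, and the summed level was 318 CPM. In Ctrl cells of cluster 3 (n = 31) it ran from 0 to 759.6 CPM with a median of 1.43, and the summed level was 64.96 CPM. The quartile ranges of the cells overlapped between clusters 1 (230.9 to 819.7 CPM) and 2 (46.6 to 548 CPM), but not between clusters 2 and 3 (0 to 7.23 CPM). Clusters 4, 5, 6 and 7 held 0.805, 1.40, 0.811 and 0.806 CPM in Ctrl, with counting intervals that overlapped, and their cells (quartiles 0 to 1.65 CPM) overlapped those of cluster 3.

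**Figure D1:**
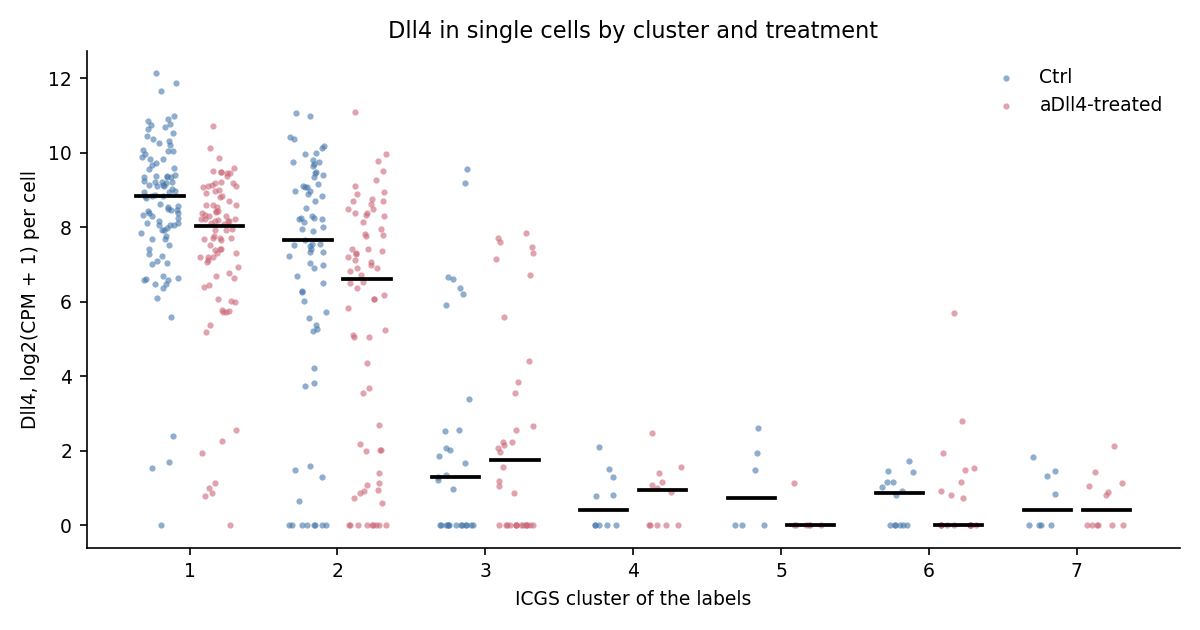
Dll4 in every cell, as log2(CPM + 1), by cluster and treatment. Points are cells and black bars are medians. In clusters 1 and 2 the treated medians (259.9 and 97.9 CPM) lie below the Ctrl medians (461 and 202.9 CPM) while the points overlap widely, and 1 treated cell of cluster 6 stands out at 51.1 CPM.

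A single read is a poor sign of Dll4 in these libraries. In Ctrl cells of clusters 4 to 7, 52.6% of 38 cells had at least 1 read, yet 0 had 10 or more, which allows a share of up to 9.25% (exact Clopper-Pearson), and in treated cells 23 of 50 cells had a read and 1 cell had 10 or more. The share of cells with at least 10 reads was therefore used. It was 95.9% in cluster 1 of Ctrl (89.8 to 98.9%), 82.2% in cluster 2 (71.5 to 90.2%) and 22.6% in cluster 3 (9.59 to 41.1%). Median depth was 918925, 868344 and 697405 reads per cell in these clusters and 1028580 in clusters 4 to 7, so the last had the lowest Dll4 at the highest depth. Cluster 3 also had fewer genes with a read per cell (median 6021) than cluster 1 (7752).

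Dll4 varied widely among cells of the same cluster. Its coefficient of variation over Ctrl cells of cluster 1 was 1.12, against 0.57 for Pecam1, 0.75 for the junction gene Cdh5, 0.92 for Notch1 and 0.94 for Notch4, and 1.36 for Hey1 and 1.39 for Igfbp3. In that cluster, 20.6% of cells were at or above 1000 CPM and the 10 highest cells held 35.5% of all Dll4 reads. In cluster 3 the 4 highest cells held 86.9% of the reads. The summed level of cluster 3 is thus the level of a few cells.

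Dll4 was lower in treated than in Ctrl cells of each endothelial cluster when counts were summed (the plot of ratios). In treated cells of cluster 1 (n = 86) the level per cell ran from 0 to 1678 CPM with a median of 259.9, and the log2 ratio of summed levels, with 1 CPM added to both, was -0.87. In treated cells of cluster 2 (n = 72) it ran from 0 to 2198 CPM with a median of 97.9, and the ratio was -0.79. In treated cells of cluster 3 (n = 36) it ran from 0 to 230.3 CPM with a median of 2.42, above the Ctrl median, while the ratio of sums was -0.65. That last ratio was -0.24 without the highest cell of each treatment. The cells of both treatments overlapped over most of their range in all 3 clusters.

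Cells with very high Dll4 were fewer among treated cells. Those at or above 1000 CPM made up 20.6% of Ctrl and 2.33% of treated cells of cluster 1, and 10.96% and 2.78% in cluster 2. The share with at least 10 reads differed by -7.50 percentage points in cluster 1 (Newcombe 95% interval -16.3 to 0.43), by -15.5 in cluster 2 (-29.03 to -1.30) and by 5.20 in cluster 3 (-15.8 to 24.9). The intervals for clusters 1 and 3 include 0. Among 12998 genes measured in cluster 1, 11.9% had a log2 ratio at or below -0.5, and 4.22% had a ratio at or below that of Dll4. In cluster 2 these shares were 12.5% and 5.94% of 12712 genes, and in cluster 3 they were 23.9% and 19.2% of 12175 genes. Over clusters 1 to 3 the summed level was 426 CPM for Ctrl and 233.5 for treated (log2 ratio -0.86), and 7.25% of 12782 genes lay at or below -0.5.

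**Figure D2:**
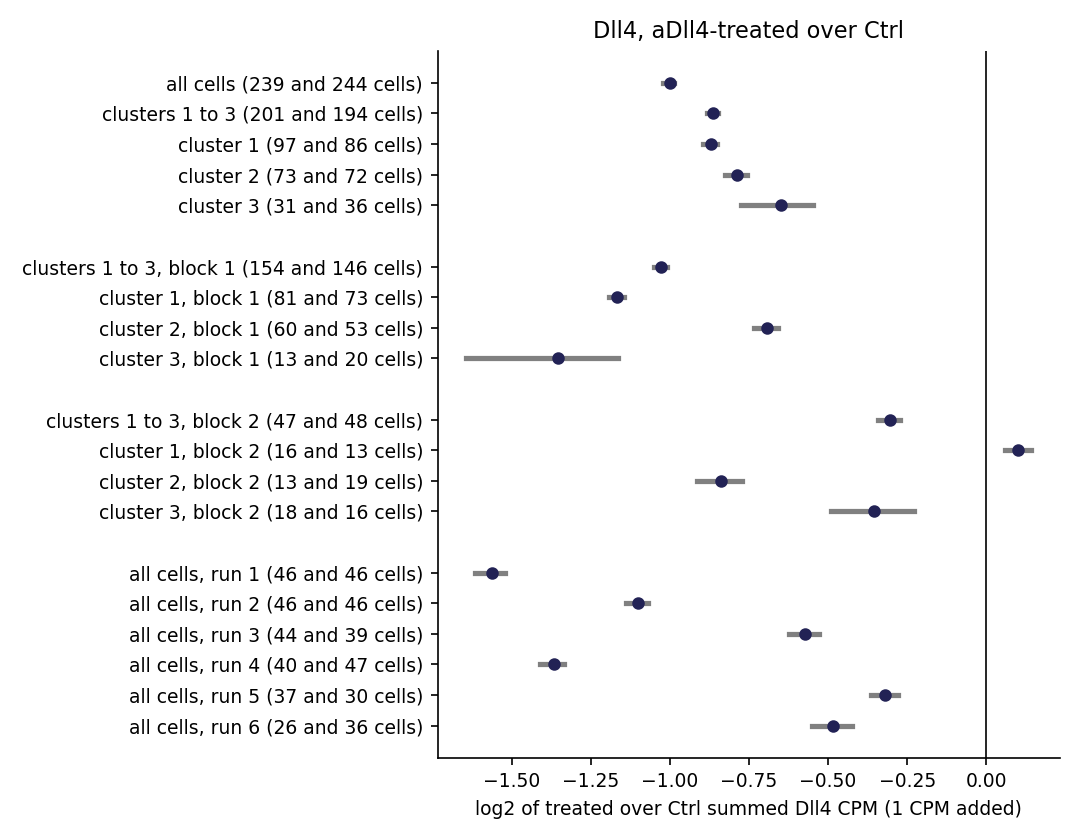
Log2 of summed Dll4 CPM in treated over Ctrl cells (1 CPM added to both), for all cells, clusters 1 to 3, these clusters within blocks of library numbers, and all cells of 6 runs of 96 library numbers. Points are ratios. Grey bars come from the exact Clopper-Pearson interval of the treated share of the Dll4 reads of both treatments, turned into a ratio of levels. All points plotted but that of cluster 1 in block 2 (0.10) lie below 0, and clusters 4 to 7, whose summed levels were 0.923 and 1.94 CPM (ratio 0.61), are not drawn.

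By library number, cells fall into a block below 20000 (block 1) and one above 22000 (block 2), and in cluster 1 the Dll4 ratio had opposite signs in them. In block 1, Ctrl cells of cluster 1 (n = 81) had a median of 489 CPM and treated cells (n = 73) one of 240.5 CPM, and the summed levels were 655 and 291 CPM (log2 ratio -1.17). In block 2, Ctrl cells of cluster 1 (n = 16) had a median of 326 CPM and treated cells (n = 13) one of 418 CPM, and the summed levels were 432 and 463 CPM (ratio 0.10). Cells of cluster 1 at or above 1000 CPM made up 22.2% of Ctrl and 1.37% of treated cells in block 1. In block 2 they were 2 of 16 Ctrl and 1 of 13 treated cells. Cluster 2 was lower in treated cells of both blocks, with medians of 219.6 and 111.7 CPM in block 1 (ratio -0.69, 60 and 53 cells) and of 169.6 and 92.04 CPM in block 2 (ratio -0.84, 13 and 19 cells). Over clusters 1 to 3, block 1 gave -1.03 and block 2 gave -0.31, and in block 2 the treated median (97.9 CPM) was above that of Ctrl (81.5 CPM). Of all genes measured, 1.44% lay at or below the Dll4 ratio in block 1 and 26.4% in block 2, against 8.25% and 17.8% at or below -0.5. Over the 6 runs of 96 consecutive library numbers, the ratio was below 0 in 6 of 6 runs for cluster 2 (-1.94 to -0.013) and in 5 of 6 for cluster 1 (-1.46 to 0.74). The exception was the last run, with 5 cells of cluster 1 in each treatment. Whether the effect differs between blocks was not tested.

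Block and sex moved together in treated cells. Counted by reads of Xist or of 4 Y-linked genes, 89.3% of treated cells of block 1 were Y-positive and 0 were Xist-positive, and 61 of 66 treated cells of block 2 were Xist-positive and 0 were Y-positive. Ctrl cells held 85 Xist-positive and 77 Y-positive cells in block 1 and 25 and 29 in block 2. In treated cells, block and sex cannot be told apart. Y-positive cells of block 1, a comparison added after the data were seen, gave -1.31 in cluster 1 (32 and 70 cells) and -0.81 in cluster 2 (33 and 45 cells). Xist-positive cells of block 2 gave -0.063 in cluster 1 (10 and 12 cells) and 0.0077 in cluster 2 (4 and 18 cells).

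Summed erythroid and mesenchymal markers were higher in treated endothelial cells as a whole, but not in cluster 1. Myeloid, lymphoid, epithelial and neural markers were also higher as a whole, while pan-hematopoietic, megakaryocyte and germ cell markers were lower. The summed level of 12 erythroid genes was 24.9 CPM in Ctrl (0 to 708 per cell, median 0.468) and 263 CPM in the treated (0 to 30244, median 1.06). The summed level of 13 genes of mesenchyme and smooth muscle was 66.5 CPM in Ctrl (median 5.77, highest cell 2743) and 120.02 CPM in treated cells (median 5.77, highest cell 36505). No gene of either list was at 0 in either group. In cluster 1 both lists were lower in treated cells, erythroid genes at 15.3 CPM in Ctrl and 10.1 in treated, and mesenchymal genes at 37.3 and 24.1. Genes of mesonephric and gonadal epithelium held 12.5 and 20.1 CPM there, and myeloid genes 7.47 and 7.55. The cell at 30244 CPM was in cluster 2, where erythroid genes held 29.8 and 632.4 CPM, and that at 36505 CPM was in cluster 3, where mesenchymal genes held 246.3 and 655.8 CPM. Whether cells with such markers had a part in the Dll4 difference of clusters 1, 2 or 3 was not tested. Over the same cells, the log2 ratios of the 17 pan-endothelial genes ran from -0.55 (Clec14a) to 0.14 (Egfl7) with a median of -0.077, and those of Cdh5 and Pecam1 were -0.04 and -0.13.

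Set against the other Notch ligands per kilobase of exon, Dll4 was the most abundant in Ctrl endothelial cells (the plot of ligands and receptors). It held 110.5 CPM per kb in clusters 1 to 3, followed by the jagged ligands Jag1 (5.10) and Jag2 (3.99) and by Dll1 (2.31). The non-canonical ligand Dlk1 held 0.209 CPM per kb, Dll3 had 4 reads and Dlk2 had 0. Dll4 ranked 375 of 12743 genes by this measure. In treated cells the same values were 60.6 for Dll4, 3.77 for Jag1, 4.33 for Jag2 and 3.08 for Dll1, so the order of Jag1 and Jag2 was exchanged. In single cells, 29.4%, 26.4% and 10.4% of Ctrl endothelial cells had at least 10 reads of Jag1, Jag2 and Dll1, against 79.6% for Dll4.

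**Figure D3:**
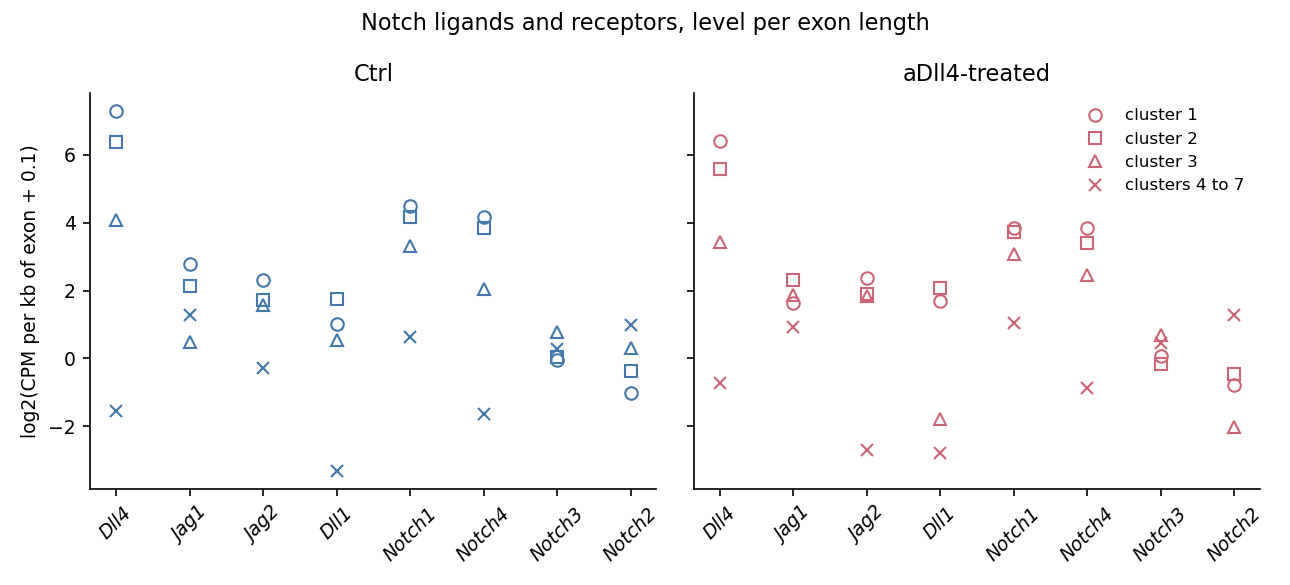
Level per exon length, as log2(CPM per kb + 0.1), of 4 Notch ligands and the 4 Notch receptors in Ctrl (left) and treated cells (right). Symbols are clusters 1, 2, 3 and clusters 4 to 7 summed, and a gene with 0 reads lies at the floor. Dll4 is the highest of the 8 genes in clusters 1 and 2 of both treatments, and holds 0.240 CPM per kb in clusters 4 to 7 of Ctrl.

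Among the receptors, Notch1 and Notch4 were found in most of the cells that carried Dll4, and Notch1 also in most of the cells without it. In Ctrl clusters 1 to 3, Notch1 ran from 0 to 1999 CPM per cell with a median of 215.2, and Notch4 from 0 to 819.8 CPM with a median of 79.2. Per kilobase they held 18.99 and 14.7 CPM, and Notch3 (0.991) and Notch2 (0.599) held far less. Of these cells, 77.1% had at least 10 reads of both Dll4 and Notch1, and the remaining ones were 5 cells with Dll4 only, 32 with Notch1 only and 9 with neither. For Notch4, 63.7% had both, and 32, 19 and 22 cells made up the rest. In cluster 1, 92 of 97 cells carried both Dll4 and Notch1, so ligand and receptor RNA were present in the same cell.

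Both receptors were lower in treated cells by level summed over clusters 1 to 3, with values that differed by block and cluster. Notch1 was 270.2 CPM in Ctrl and 185.3 in treated endothelial cells (log2 ratio -0.54), with -0.71 in block 1 and 0.13 in block 2. Notch4 was 118.4 and 93.5 CPM (ratio -0.34), with -0.19 in block 1 and -0.87 in block 2. The share of endothelial cells with at least 10 reads of both Dll4 and Notch1 was 77.1% in Ctrl and 65.98% in treated cells. That with at least 10 reads of Dll4, with or without Notch1, was 79.6% and 69.1%, so the first difference is not one of the receptor alone. By cluster, Notch4 had ratios of -0.33, -0.44 and 0.42 in clusters 1, 2 and 3. Jag1 had a ratio of -1.12 in cluster 1, 0.18 in cluster 2 and 1.34 in cluster 3. The last rests on low levels, 7.54 CPM in 31 Ctrl cells and 20.6 CPM in 36 treated cells. Jag2 had ratios of 0.42 in block 1 and -0.67 in block 2, and Dll1 had ratios of 0.24 and 0.67 in the blocks.

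Across the Ctrl endothelial cells (97, 73 and 31 of clusters 1, 2 and 3), each gene's CPM was ranked against that of Dll4 (Spearman rho). The labels name no embryo, so these cells, of both sexes and both blocks, were taken as 1 sample. Both genes of a pair also share each cell's library and depth, so rho is a description with no test. Dll4 itself had a rho of -0.027 with total reads, 0.031 with the number of genes and 0.11 with the mitochondrial share. Over the 12777 other genes with a read in at least 10% of these cells the median rho was 0.003, and 90% of genes lay between -0.21 and 0.20. At or above 0.2 lay 5.31% of genes (678), and at or below -0.2 lay 5.8% (741).

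The gene that followed Dll4 most closely was Igfbp3, which binds insulin-like growth factors, with a rho of 0.69. It was followed by the adhesion molecule Mcam (0.58), the connexin Gja1 (0.56), the semaphorin Sema6d (0.56), the basement membrane protein Nid2 (0.55) and the Notch target repressor Hey1 (0.55). Then came Rell1 (0.54), the matrix-associated proteins Sparc (0.53) and Sparcl1 (0.52), the potassium channel Kcnj2 (0.51), the kinase Plk2 (0.51) and Cdc42ep3 (0.50), an effector of the GTPase Cdc42. Ranked within each cluster, so that differences between clusters were removed, these 12 genes had values between 0.30 and 0.52, with the same sign in clusters 1 and 2 fixed by the way they were chosen. In the 31 cells of cluster 3, where Dll4 was low, their rho ran from -0.15 (Mcam) to 0.44 (Hey1), with Igfbp3 at 0.094. There 2 of the 12 were at or above 0.2 (Hey1, and Rell1 at 0.39), where 29.1% of 12657 genes lay, and 5 were below 0. In treated cells, 11 of the 12 were at or above 0.2, where 7.1% of genes are. Only Hey1, at 0.15, was not.

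**Figure D4:**
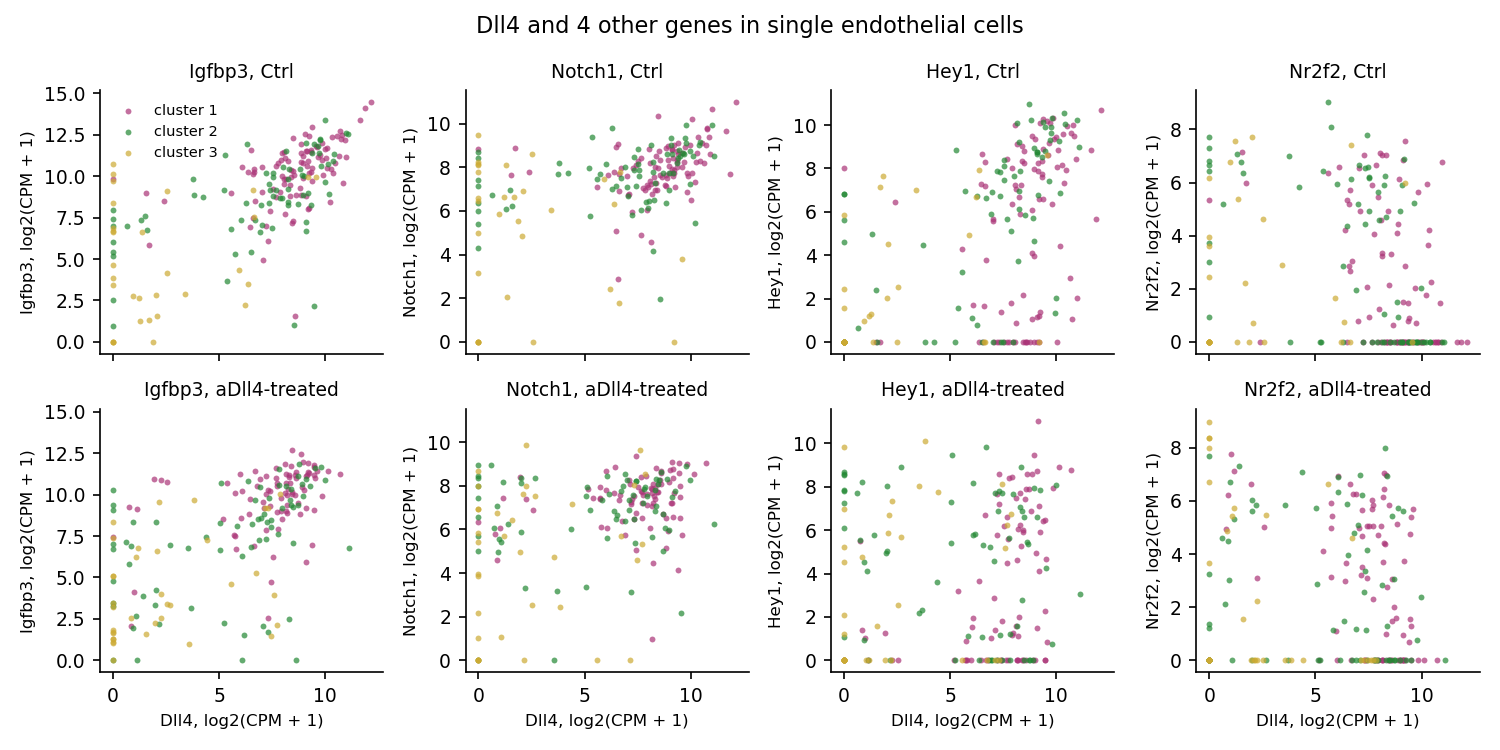
Dll4 against Igfbp3, Notch1, Hey1 and Nr2f2 in single cells, as log2(CPM + 1), in Ctrl (top) and treated (bottom) cells of clusters 1 (purple), 2 (green) and 3 (yellow). Igfbp3 rises with Dll4 in both rows (rho 0.69 and 0.63), Hey1 does so in Ctrl (0.55) more than in treated cells (0.15), and the venous gene Nr2f2 goes down in Ctrl (-0.37).

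The relation with Hey1 was not the same in all subsets of treated cells. In Ctrl it was 0.44 in cluster 1 and 0.66 in cluster 2, and 0.55 in block 1 and 0.44 in block 2. In treated cells it was 0.41 in cluster 1 and -0.16 in cluster 2, and 0.066 in block 1 and 0.34 in block 2. Hey1 ran from 0 to 2035 CPM per cell in Ctrl endothelial cells with a median of 67.1, and from 0 to 2106 CPM in treated cells with a median of 17.2. Its summed level was 241.1 and 121.9 CPM (log2 ratio -0.98), with -1.91 in block 1 and 1.04 in block 2. Differences between these values of rho were not tested.

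Of the receptors, Notch1 (rho 0.49) and Notch4 (0.48) ranked 13 and 18 of 12777 genes, while Notch2 (-0.14) and Notch3 (0.024) did not follow Dll4. Within clusters the rho of Notch1 was 0.37 and that of Notch4 0.36. In Ctrl cells of cluster 3 they were -0.13 and 0.014. In block 2 (47 cells) they were 0.28 and 0.27, where a larger share of all genes was at or above 0.2 (below). In treated cells they were 0.32 and 0.28, with 0.24 and 0.059 in cluster 1 and 0.11 and 0.059 in cluster 2. Ranked within clusters, the treated values were 0.19 and 0.11. Of the other ligands, Jag2 had a rho of 0.24 in Ctrl and 0.26 in treated cells, and Jag1 (0.086), Dll1 (-0.074) and Dlk1 (-0.087) lay near 0 in Ctrl.

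Known inputs of Dll4 and outputs of Notch come next, to be read beside the 5.31% of all genes at or above 0.2 and the 5.8% at or below -0.2. Of 9 measured VEGF genes, 5 were at or above 0.2, led by the co-receptor Nrp1 (0.49), the receptors Flt1 (0.42) and Kdr (0.33), and 1 was at or below -0.2, Nrp2 (-0.30), a co-receptor of lymphatic and venous endothelium. Of 16 transcription factors that bind Dll4 enhancers in other systems, 7 were at or above 0.2, led by Mef2a (0.36), Sox7 (0.33) and Ets1 (0.30). Of 10 Notch targets, 6 were at or above 0.2, with Efnb2 (0.46), an arterial ephrin, and Nrarp (0.35), a feedback inhibitor, after Hey1. Between ligand and target stands the Notch machinery. Of 5 genes of sugar addition to the receptors, 3 were at or above 0.2 (among them the fringes Rfng, 0.28, and Mfng, 0.23) and 1, Poglut1 (-0.22), at or below -0.2. Of 8 genes of ligand endocytosis, 1 was above (Epn2, 0.23) and 1 below (Neurl3, -0.21). Of 8 genes of receptor cleavage, 0 passed either value, and of 12 nuclear partners and inhibitors, 2 did (Ep300, 0.25, and Maml3, 0.23). In lists this short, 0 or 1 of 8 genes is near the shares of all genes. Ranked within clusters, where 1.56% of genes were at or above 0.2, none of the genes of sugar addition, endocytosis, cleavage or the nuclear group passed either value (Rfng was at 0.17, Epn2 at 0.071 and Ep300 at 0.17). By the same ranks 4 of 9 VEGF genes, 3 of 16 transcription factors and 5 of 10 Notch targets were at or above 0.2, and Ets1, at 0.11, was not.

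Arterial, tip cell and venous genes describe the kind of endothelium, and are set beside the 5.31% of all genes at or above 0.2 and the 5.8% at or below -0.2. Of 18 arterial genes, 11 were at or above 0.2 and 0 at or below -0.2 (median 0.30), a list that shares Hey1, Efnb2, Nrp1, Igfbp3 and others with those above. Of 11 tip cell genes, 8 were at or above 0.2 (median 0.35), with the chemokine receptor Cxcr4 at 0.48 and the guidance receptor Unc5b at 0.47. Of 17 pan-endothelial genes, 10 were (median 0.25), led by Pecam1 (0.48). Pecam1 and Kit (0.45) encode proteins of the sorting gate. Of 9 venous genes, 0 were at or above 0.2 and 3 at or below -0.2, Flrt2 (-0.44), Nr2f2 (-0.37) and Nrp2, with a median of -0.14. The venous median was -0.24 in block 1 and 0.0086 in block 2, where Flrt2 was at -0.27, Nr2f2 at -0.13 and Nrp2 at -0.077. Ranked within clusters, 5 of the 9 were at or below -0.2, where 5.69% of genes lay. By the same ranks 12 arterial, 7 tip cell and 7 pan-endothelial genes were at or above 0.2, where 1.56% of genes lay. Of 10 hemogenic transition factors, only Kit was at or above 0.2. The arterial factor Sox17 was at 0.15 in Ctrl and 0.41 in treated cells, and Gata2 was at -0.13.

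**Figure D5:**
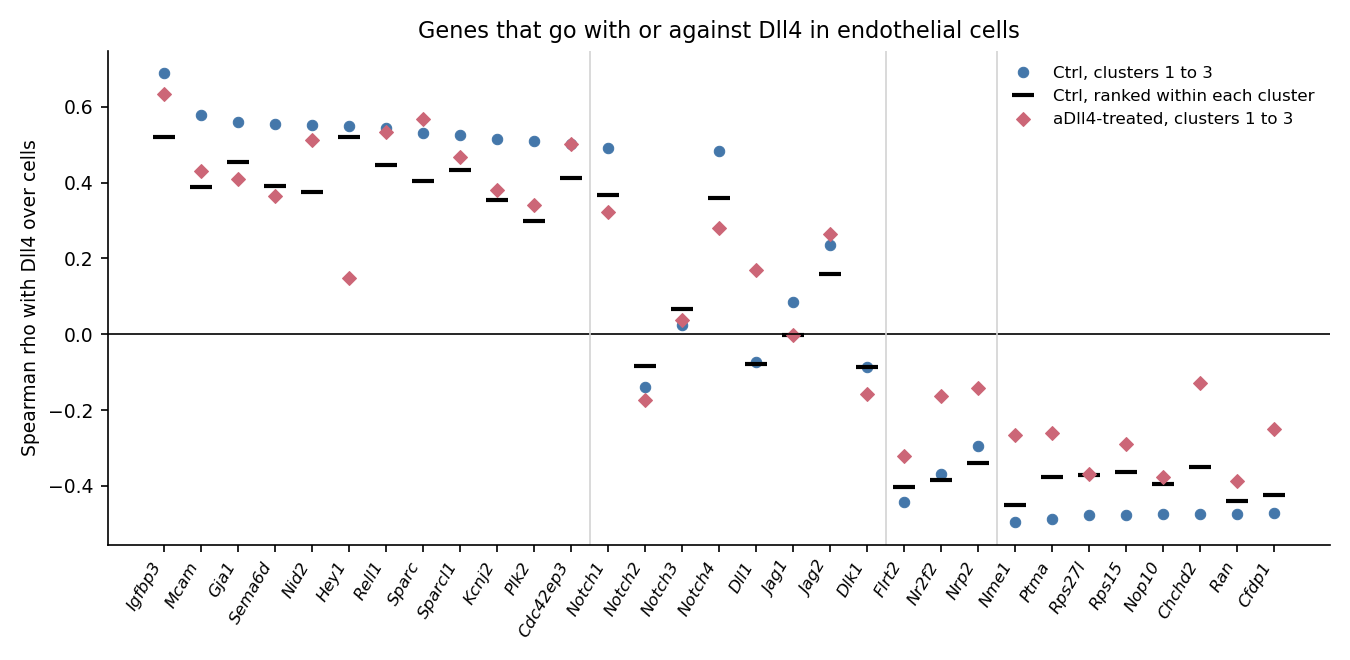
Spearman rho with Dll4 over cells for the 12 highest genes, the Notch receptors and other ligands, 3 venous genes, and the 8 lowest genes. Blue points are Ctrl cells of clusters 1 to 3, black bars Ctrl cells ranked within each cluster, and red diamonds treated cells. Hey1 drops from 0.55 to 0.15 and Igfbp3 stays near (0.69 and 0.63).

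The 8 genes that went most against Dll4 were the nucleotide kinase Nme1 (-0.50), Ptma (-0.49), the ribosomal genes Rps27l (-0.48) and Rps15 (-0.48), the small nucleolar RNA protein Nop10 (-0.47), the mitochondrial protein Chchd2 (-0.47), the nuclear transport GTPase Ran (-0.47) and Cfdp1 (-0.47). In treated cells 7 of 8 were at or below -0.2, where 3.4% of genes are, and Chchd2 (-0.13) was not. Ribosomal protein genes and Ptma have many near-identical processed copies in the genome, and how reads were shared among them is not stated by any source used, so these values are uncertain. In Ctrl cells, 5.8% of all genes were at or below -0.2 and 5.31% at or above 0.2. Of 81 ribosomal protein genes, a list added after the data were seen, 59 were at or below -0.2 and 0 at or above 0.2. Of 1720 annotated pseudogenes, a list added likewise, 246 were at or below -0.2 and 12 at or above 0.2. Of 16 S phase genes, 4 were at or below -0.2, led by Mcm5 (-0.26), and of 16 G2 and M phase genes, 0 were. Ranked within clusters, 3 S phase and 8 G2 and M phase genes were at or below -0.2, where 5.69% of genes lay. Of 9 basement membrane genes, another list added after the data were seen, 9 were at or above 0.2. That list holds Nid2 and Sparc, which were already among the 12 highest genes. Of the 6 cell cycle inhibitors, 1 was at or above 0.2 (Btg2, 0.20).

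Markers of other cell types did not pass either value, with 0 of 6 pan-hematopoietic, 3 erythroid, 1 myeloid, 4 megakaryocyte, 7 mesenchymal, 1 epithelial and 1 neural genes, and no lymphoid gene was measured. The 1 measured gene of the germ cell list, Prdm1 (0.42), a repressor also used outside germ cells, was an exception. Since 5.31% of all genes were at or above 0.2 and 5.8% at or below -0.2, a count of 0 in lists this short is close to those shares. Some of these markers were also seen in few Ctrl endothelial cells, such as Krt18 in 10.45% and Epor in 10.95%.

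The lists of genes with Dll4 overlapped in part between treatments, which share no cells. Among 12406 genes measured in both, 669 were at or above 0.2 in Ctrl and 903 in treated cells, and 363 were in both, 54.3% of the first and 40.2% of the second. Of all these genes, 5.39% were at or above 0.2 in Ctrl and 7.28% in treated cells. At or below -0.2 lay 735 and 432 genes, with 289 in both, 39.3% and 66.9% of the lists, where 5.93% and 3.48% of all these genes lay. Of the 12 genes highest in Ctrl, 2 had a log2 ratio of treated over Ctrl at or below -0.5 (Igfbp3, -0.56, and Hey1) and 1 at or above 0.5 (Cdc42ep3, 0.57), where 7.25% of genes lay at or below -0.5 and 4.69% at or above 0.5.

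Near the gene itself, Gm14207 had reads mostly in cells that had Dll4, except in cluster 3. Its summed level was 18.7 CPM in cluster 1, 11.2 in cluster 2 and 2.31 in cluster 3 of Ctrl, and it had 0 reads in the 38 Ctrl cells of clusters 4 to 7. Of 76 Ctrl endothelial cells with a Gm14207 read, 72 also had 10 or more Dll4 reads, as did 79.6% of all Ctrl endothelial cells. In cluster 3 this held for 1 of 3 Ctrl and 3 of 7 treated cells with a Gm14207 read. Its rho with Dll4 was 0.34 in Ctrl and 0.36 in treated cells, and its log2 ratio of treated over Ctrl was -0.18 where that of Dll4 was -0.86. Its reads came to 3.23% of those of Dll4. The neighbours Zfyve19 (-0.069), Vps18 (0.14) and Ino80 (0.10) lay near the middle of all genes, and the next gene after Dll4 that was measured, Chac1, was at 0.27.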

How the data were processed

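Single CD31+ Kit+ CD45- cells were processed by Smart-seq2 and sequenced on an Illumina HiSeq, per the labels' protocols. The deposited table holds whole-number read counts per gene and cell, not normalized by the authors. The submitters' processing notes name the build mm10 and the tools GSNAP, a read aligner, and HTSeq 0.6.0, a read counter. The annotation release, counting options and cell filters were not given in the sources used here. All cells were used, doublets were not called, and 0 columns belonged to no sample. Symbols, positions and exon lengths came from GENCODE M21, which named 45229 of 46078 identifiers. Counts were summed per treatment and cluster and scaled to CPM, with exact Poisson or Clopper-Pearson 95% intervals. These cover counting error only. Ratios add 1 CPM. Alternatives were other pseudocounts and scalings, thinning each cell to 100000 reads, leaving out the highest cells, a block or a run, and for rho other measures and filters. Library numbers were cut into 6 runs of 96. Scripts ran in Python 3.11.15, with size factors from edgeR 4.0.16 and DESeq2 1.42.0, and the correlation script was checked on simulated data. Named genes were the 12 highest and 8 lowest by rho that kept its sign in both blocks and in clusters 1 and 2, the receptors and ligands, up to 3 of each other list, and the neighbours of Dll4, without sex-linked, mitochondrial or predicted names. Dll4 and the 26 lists were chosen with earlier results of these data known.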

Additional observations from a re-analysis of the deposited data

How the results depend on the processing

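Lower Dll4 in treated cells kept its direction over all cells (log2 ratio -1.001) under every alternative run. It was -0.97 with 10 CPM added, -1.20 thinned to 100000 reads, -1.18 as a mean over cells, -0.86 in clusters 1 to 3, -0.84 at equal cluster shares, and -1.15 to -0.91 with a run left out. In Y-positive cells of block 1 it was -1.35 and in Xist-positive cells of block 2 -0.79, both added after the data were seen. For block 1 (-1.15) it was -1.12 with 10 CPM added, -1.33 thinned, -1.34 as a mean and -1.18 without the top cells, and for block 2 (-0.46) it was -0.51 thinned, -0.38 as a mean and -0.57 without the top cells. For cluster 1 (-0.87) it was -1.10 thinned, -1.10 as a mean, -0.91 without the top cells, -1.17 in block 1, 0.10 in block 2, -1.03 to -0.65 with a run left out, -1.31 in Y-positive cells and -0.063 in Xist-positive cells. For cluster 2 (-0.79) it was -1.01 thinned, -0.95 as a mean, -0.85 without the top cells, -0.69 and -0.84 in the blocks, -0.98 to -0.57 with a run left out and 0.0077 in Xist-positive cells. For cluster 3 (-0.65) it was -0.24 without the top cells, -1.35 and -0.36 in the blocks, and -1.78 (without run 5) to 0.16 (without run 6) with a run left out. The cause of these differences was not tested.

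In Ctrl, the level of cluster 1 was 675 CPM thinned and 655 and 432 in the blocks, that of cluster 2 388 thinned and 336 and 252, and that of cluster 3 48.5 and 76.4 in the blocks. The share of cells with a read was 100% and 93.75% in the blocks for cluster 1, and for cluster 3 22.6% at 10 reads or more, 35.5% thinned and 76.9% in block 1. Genes at or above 0.2 (5.31%) made up 1.56% within clusters, 24.8% in the 47 cells of block 2, and 4.38% to 6.73% with a run left out. Genes at or below -0.2 (5.8%) made up 2.93% by Pearson's r of log2 values, 11.6% in block 1, 3.81% in block 2, 3.4% in treated cells, and 4.88% to 9.48% with a run left out, the last without run 6. The receptors moved with cluster ranks (Notch1 0.37, Notch4 0.36), in block 2 (Notch1 0.28, Notch2 0.010, Notch3 0.26, Notch4 0.27) and in treated cells (Notch1 0.32, Notch4 0.28). For the 12 highest and 8 lowest genes, 45 values moved by over 0.1 over these alternatives. Their sign was kept in blocks and in clusters 1 and 2 by the way they were chosen, and in the 31 cells of cluster 3, 8 of the 20 had the other sign. No paired analysis was possible because the labels give no replicate that 2 cells share across treatments and no test was made. With no embryo named and each treatment taken as 1 sample, the spread between embryos is not known.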
